A study of Homo sapiens with 4 samples.

Results

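MAT2B and 9 further genes of methionine metabolism (MAT2A, MAT1A, AHCY, AHCYL1, MTR, MTRR, CBS, MTAP and AMD1) were examined in cells given a miR-335 mimic. Every probe that the array files assign to one of these 10 genes was kept, which gave 21 of the 50599 probes on the array. Of these, 16 probes of 9 genes were bright enough to be tested, among 20328 tested probes in all. MAT1A was the gene without a tested probe.

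GIST-T1, an established cell line from a human gastrointestinal stromal tumor (GIST), was electroporated with 100 pmol of a double-stranded RNA, either the miR-335 mimic, which stands in for the mature microRNA, or a commercial negative control mimic. Total RNA was taken 48 h later. Of it, 100 ng was amplified and labeled, and the labeled product was hybridized to a 1-color Agilent human array. Each group has 2 arrays per the labels. No source states whether the 2 arrays of a group came from separate cultures, so the p-values below measure the spread between these arrays, which may be technical. All results describe 1 cell line under electroporation. The labels name neither arm of miR-335, and the last description line of both mimic samples names miR-34a, whereas their titles, characteristics and protocol name miR-335.

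Methionine is joined to ATP by methionine adenosyltransferase to give S-adenosylmethionine (SAM), the methyl donor for DNA, RNA, histone and small-molecule methylation. The spent donor is hydrolyzed to homocysteine, which is either methylated back to methionine with folate and cobalamin or passed through transsulfuration to cysteine and glutathione. A side branch takes SAM into polyamine synthesis, and the methylthioadenosine left over is salvaged to methionine. Mimics act by base pairing of the seed, bases 2 to 8 of the microRNA, with messenger RNA.

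Because the labels leave the arm open and name a second microRNA in 1 field, the mature sequences of both miR-335 arms and of miR-34a-5p are shown, from RefSeq on GRCh38.p14, with the seed in capitals. The miR-335 arms lie at chr7:130496126-130496148 and chr7:130496162-130496183 on the plus strand, and miR-34a-5p lies at chr1:9151735-9151756 on the minus strand.
hsa-miR-335-5p: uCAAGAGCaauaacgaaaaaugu
hsa-miR-335-3p: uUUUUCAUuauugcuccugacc
hsa-miR-34a-5p: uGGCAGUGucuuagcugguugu
The 3 seeds differ, so no group of shared seed was formed. The match to bases 2 to 8 of miR-335-5p, GCTCTTG, was found in 0.437% of the 50599 probe sequences, and that of miR-335-3p, ATGAAAA, in 1.22%. The corresponding match of miR-34a-5p, CACTGCC, was found in 0.435%. None of the 21 probes of the 10 genes held any of the 3 matches on either strand, which says only that these letters are not in the 60 bases of each probe.

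Both MAT2B probes and the 2 MTAP probes that join exons are shown next, since their values are compared below, 5′ to 3′ in the sense of the transcript, with hg19 positions from the array files. The MAT2B probe A_23_P81408 (chr5:162945313-162945372, plus strand) is printed up to the first stop triplet of its first reading frame, in capitals. The MAT2B probe A_33_P3246543 (chr5:162939135-162939194, plus strand) lies upstream of it in the gene. The MTAP probes shown (chr9:21802766-21815476 and chr9:21837969-21854648, plus strand) cover far more genome than their 60 bases. The remaining MTAP probe is not shown.
MAT2B A_23_P81408: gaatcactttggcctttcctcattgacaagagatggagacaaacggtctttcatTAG
MAT2B A_33_P3246543: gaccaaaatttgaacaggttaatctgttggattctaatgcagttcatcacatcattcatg
MTAP A_24_P51118: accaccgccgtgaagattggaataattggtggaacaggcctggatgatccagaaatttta
MTAP A_24_P297888: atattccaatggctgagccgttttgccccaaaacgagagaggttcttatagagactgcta

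Across the arrays, 40.3% to 41.9% of probes were well above background. The 75th percentile of an array's processed intensity ranged from 178.8 to 189.7 units. A normalized value here is the log2 processed signal minus that percentile on the same array, so a value of 0 is the 75th percentile, and a difference is always the mimic mean minus the control mean. The 2 arrays of a group differed by a median of 0.06 in either group, on the log2 scale. The 6 markers of GIST and Cajal cells (KIT, ANO1, ETV1, PRKCQ, CD34 and PDGFRA) were well above background on all 4 arrays. MYH11 of smooth muscle, S100B and SOX10 of Schwann cells, KRT20 of epithelium, PTPRC of leukocytes and ALB of hepatocytes were not well above background on any array, whereas DES of smooth muscle and EPCAM of epithelium were on all 4. All arrays were on 1 slide from 1 scan, and the control arrays held positions 1 and 2 and the mimic arrays positions 3 and 4, so position and treatment cannot be told apart.

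The question for each gene was whether the level of its transcript differed between cells given the mimic and cells given the control. In limma, no probe of the 16 tested had a p-value under 0.05 after Benjamini-Hochberg adjustment. Over all tested probes, 1.15% passed as lower and 1.47% as higher with the mimic. At an unadjusted p of 0.05 in limma, 4 of the 16 passed, 2 of MAT2B and 2 of MTAP, beside 25.3% of all tested probes. The mimic and control arrays did not overlap for 10 of the 16 probes, 8 of them lower and 2 higher with the mimic, beside 59.7% of all tested probes. The median difference of the 16 probes was -0.04, against -0.01 for all tested probes, and 12 of the 16 differences were negative, against 53.8% of all.

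MAT2B encodes the regulatory subunit that binds the catalytic subunit MAT2A and tunes SAM synthesis. The values of its brighter probe, A_23_P81408, were 2.39 and 2.21 on the mimic arrays and 2.94 and 2.98 on the control arrays. The processed signals of this probe were 996 and 848 units with the mimic and 1370 and 1438 units with the control. Both mimic arrays were therefore below both control arrays, and the distance between the groups was larger than the gap between either pair of replicates. The difference was -0.66 ± 0.08 (SE, n = 2 arrays per group) with a 95% interval of -0.88 to -0.43, which corresponds to a level 1.58-fold higher in control than in mimic cells. The adjusted p in limma was 0.0538, just above the threshold. Of all tested probes, 206 (1.01%) had a difference as low as this one.

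The dimmer MAT2B probe, A_33_P3246543, had the values -0.54 and -0.47 on the mimic arrays and -0.08 and 0.03 on the control arrays. Here too the groups did not overlap. The difference was -0.48 ± 0.06 (SE, n = 2 arrays per group), a 1.39-fold higher level in control cells, with an adjusted p of 0.0580 in limma. Of all tested probes, 2.46% had a difference as low. The 95% interval of -0.65 to -0.31 overlapped that of the brighter probe, and both probes had the same direction. The probes share a transcript and the same 4 arrays and are not replicates of the treatment.

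By the criterion of more than 1.5-fold, which carries no test here, the brighter MAT2B probe was the only 1 of the 16 to be called lower and none was called higher, beside 1.47% lower and 2.43% higher among all tested probes. The study itself names MAT2B from these arrays, as a predicted miR-335 target that was lower by this criterion. Its lower level here is therefore not independent evidence.

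**Figure D1:**
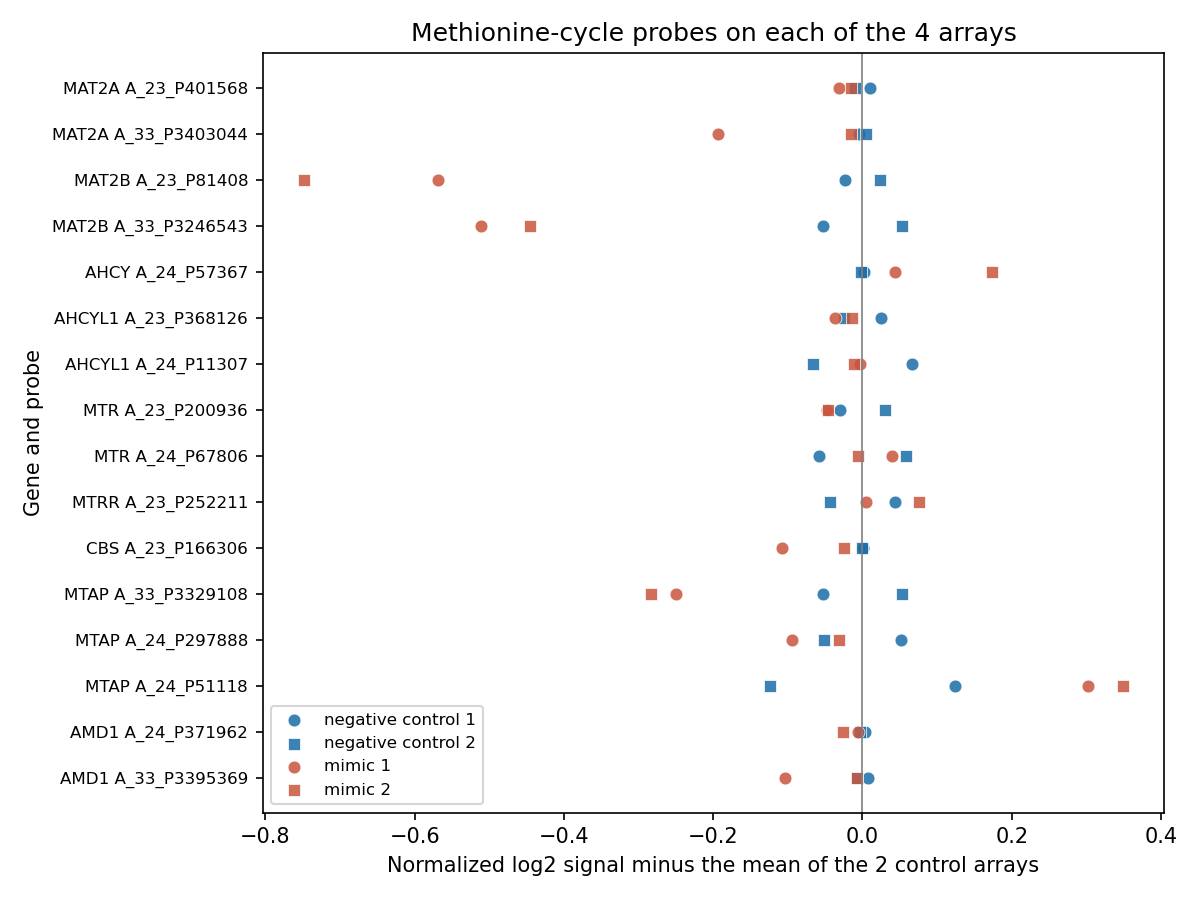
Normalized log2 signal of the 16 tested probes on each of the 4 arrays, minus the mean of the 2 control arrays (horizontal axis, log2 units), with 1 row per probe. Blue points are control arrays and red points are mimic arrays, with circles for replicate 1 and squares for replicate 2. Both mimic arrays lie left of both control arrays for the 2 MAT2B probes, while most other genes lie close to 0.

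Whether MAT2B passed the threshold depended on the processing, although its direction did not. Under the 17 alternative settings the difference of the brighter probe ranged from -0.85 to -0.57. Settings that change only the filter or the test leave this difference as it is. Only the settings that change the values or the arrays used could alter its direction. Testing only the probes well above background on all 4 arrays brought both MAT2B probes under the threshold, with adjusted p-values in limma of 0.0453 and 0.0490, while 1.49% of the probes in that fit passed as lower. An intensity trend in the variance gave 0.000459 and 0.0105, with 8.54% of all tested probes passing as lower. Leaving out 1 array at a time gave differences of -0.75 to -0.57 for the brighter probe, with the remaining array of the group assumed to vary like the others. That probe did not pass in these fits, and almost no tested probe of the array did.

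**Figure D2:**
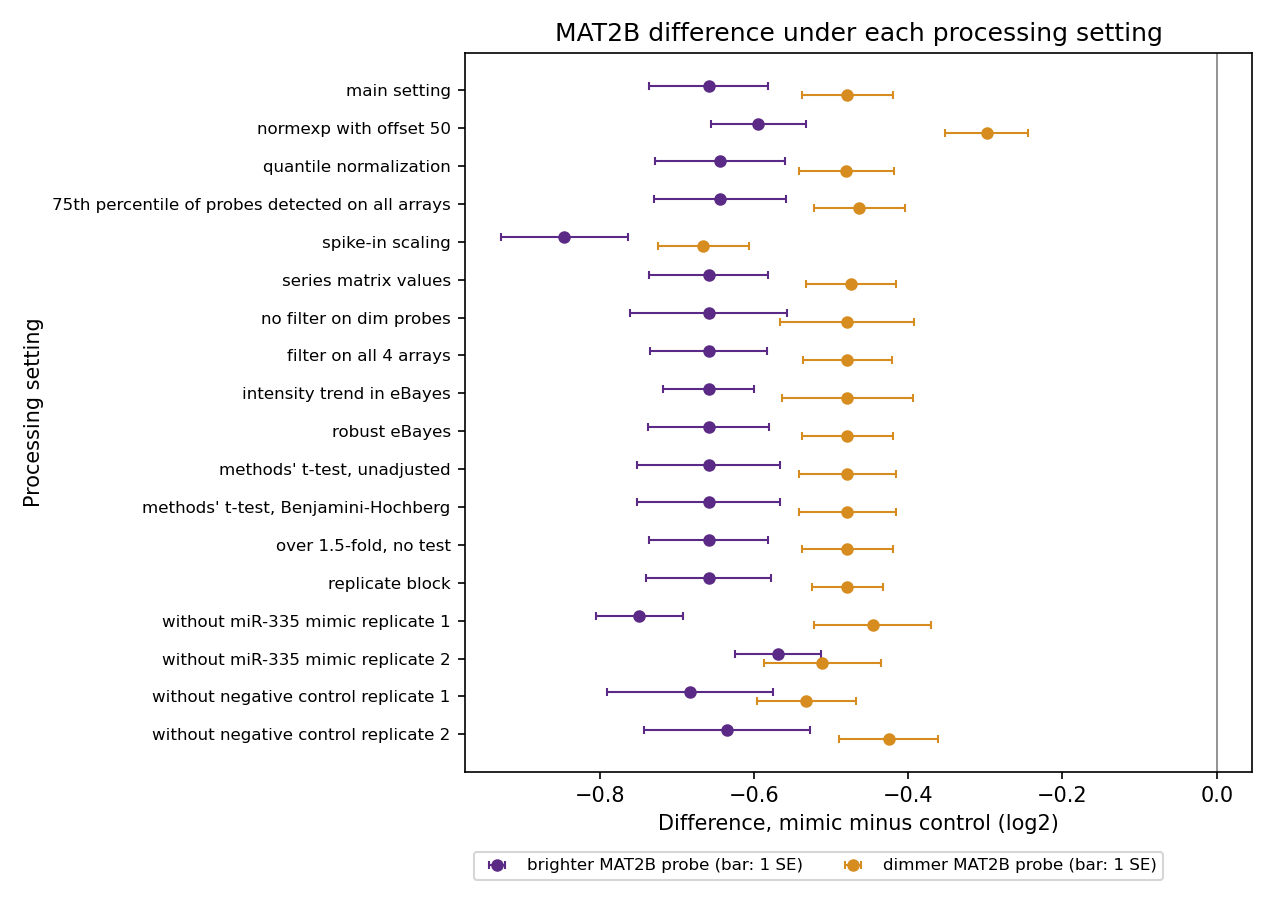
Difference between mimic and control (horizontal axis, log2 units) for the brighter and the dimmer MAT2B probe under the main setting and 17 alternatives, with bars of 1 SE. Every point lies below 0, from -0.85 to -0.57 for the brighter probe and from -0.67 to -0.30 for the dimmer probe. Settings that change only the filter or the test repeat the difference of the main setting.

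MAT2A is the catalytic subunit of the enzyme outside the liver. The values of its brighter probe, A_23_P401568, were 3.57 and 3.58 with the mimic and 3.61 and 3.59 with the control. The difference was -0.02 ± 0.04 (SE, n = 2 arrays per group; adjusted p = 0.715 in limma), with a 95% interval of -0.13 to 0.08. The second MAT2A probe, A_33_P3403044, had 0.87 and 1.04 with the mimic and 1.05 and 1.06 with the control. Its difference of -0.10 ± 0.07 rested mostly on the first mimic array and did not pass the test (adjusted p = 0.446 in limma), with an interval of -0.32 to 0.11. MAT1A, the catalytic subunit of adult liver, had 1 probe, which stayed at background level on every array. Whether MAT2B and MAT2A differed in their response was not tested.

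AHCY hydrolyzes the spent donor S-adenosylhomocysteine to homocysteine and adenosine. Its values were 3.60 and 3.73 with the mimic and 3.56 and 3.56 with the control, so both mimic arrays were above the controls. The difference of 0.11 ± 0.06 (SE, n = 2 arrays per group) did not pass the test (adjusted p = 0.345 in limma), and its interval ran from -0.07 to 0.28. It was 0.17 without the first mimic array and 0.044 without the second. AHCYL1 is a relative of AHCY known as a partner of the inositol trisphosphate receptor. Its 2 probes differed by -0.03 and -0.01, and the groups overlapped for both.

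MTR, the cobalamin-dependent methionine synthase that remethylates homocysteine, had differences of -0.05 ± 0.04 (A_23_P200936) and 0.02 ± 0.06 (A_24_P67806), and its other probe was not well above background on any array. MTRR reactivates MTR by reductive methylation of its cofactor. The tested MTRR probe, A_23_P252211, had 1.25 and 1.32 with the mimic and 1.29 and 1.20 with the control, and the groups overlapped. A second MTRR probe, A_33_P3304377, was well above background on 1 mimic array only and was not tested. The other 2 MTRR probes were dim on every array and are described in the files as another locus, so their assignment is uncertain.

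CBS joins homocysteine to serine, the entry into transsulfuration. Its values were 5.56 and 5.64 with the mimic and 5.67 and 5.67 with the control, a difference of -0.07 ± 0.05 (SE, n = 2 arrays per group). Both mimic arrays were slightly below the controls, but the difference did not pass the test (adjusted p = 0.442 in limma), and its interval was -0.20 to 0.07.

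AMD1 decarboxylates SAM for polyamine synthesis. Its brighter probe, A_24_P371962, had 5.06 and 5.04 with the mimic and 5.06 and 5.06 with the control, a difference of -0.02 ± 0.04, and its other probe differed by -0.06 ± 0.05. Neither passed the test. Over MAT2A, AHCY, AHCYL1, MTR, MTRR, CBS and AMD1, the 11 tested probes had differences between -0.10 and 0.11 and adjusted p-values in limma of 0.345 or more. The bounds of their 95% intervals lay between -0.32 and 0.28, and a p that misses the threshold does not show that their levels were equal.

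MTAP cleaves methylthioadenosine, the first step of methionine salvage. Its 3 probes had differences of both signs, none past the adjusted threshold. The probe nearest the 5′ end, A_24_P51118, had -1.53 and -1.48 with the mimic and -1.71 and -1.96 with the control. Its difference was 0.33 ± 0.10 (SE, n = 2 arrays per group; adjusted p = 0.170 in limma), and the mimic arrays were above both controls. The control arrays of this probe differed from each other by 0.25, the widest replicate gap among the MTAP values. The difference was 0.20 without control replicate 2 and 0.45 without control replicate 1. It was 0.17 with normexp background correction and 0.14 with spike-in scaling.

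The middle MTAP probe, A_24_P297888, had overlapping groups and a difference of -0.06 ± 0.06. The probe farthest downstream, A_33_P3329108 (chr9:21865830-21865889, plus strand), had -0.12 and -0.15 with the mimic and 0.08 and 0.18 with the control. Both mimic arrays of that probe were below both controls, and its difference was -0.27 ± 0.05 (adjusted p = 0.104 in limma). The 95% intervals of the upstream probe (0.04 to 0.62) and of the downstream probe (-0.42 to -0.11) do not overlap. These intervals take no account of intensity, and the upstream probe was dim, with processed signals of 47 to 66 units. With an intensity trend in the variance the SE was 0.16 for the upstream and 0.08 for the downstream probe. The difference between the probes was not tested, and no direction can be given for MTAP as a gene.

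**Figure D3:**
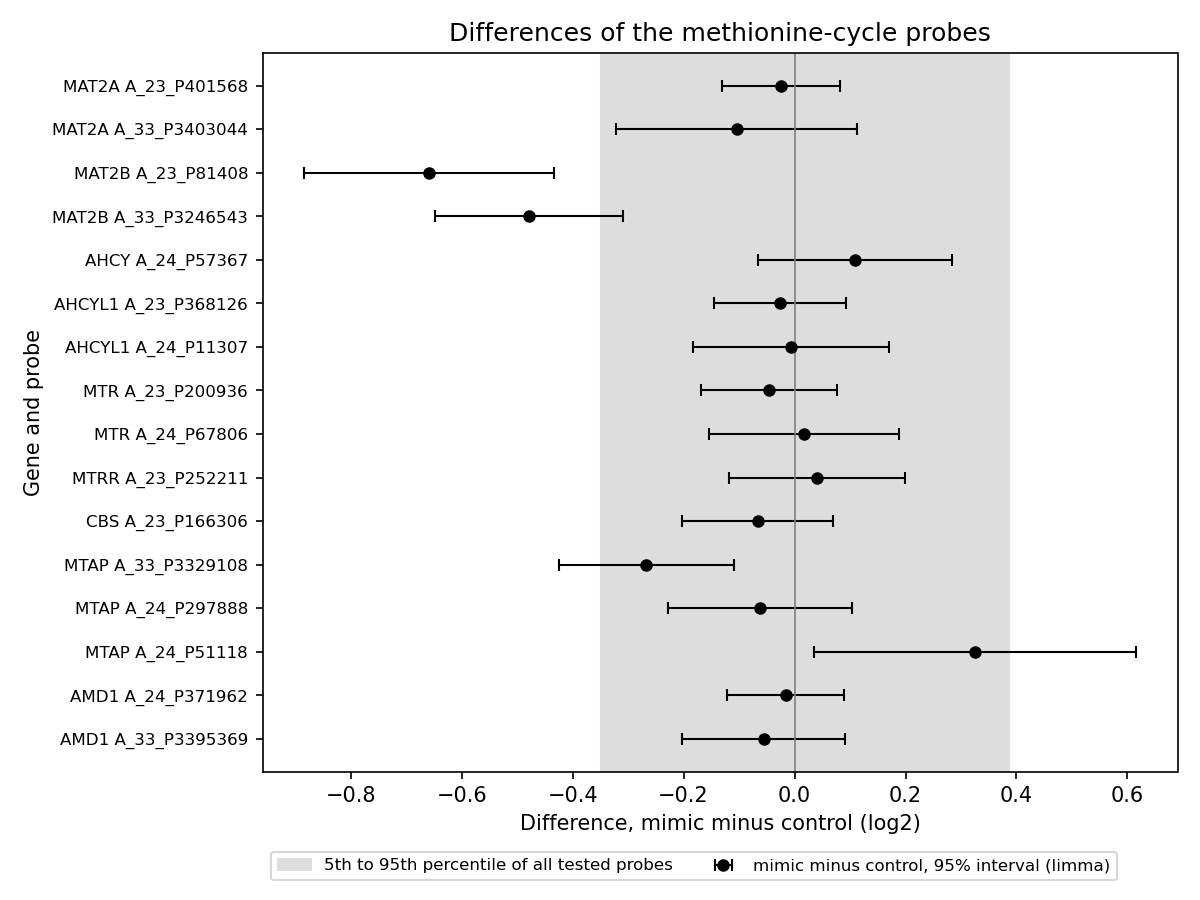
Difference between mimic and control for the 16 tested probes (horizontal axis, log2 units) with 95% intervals from limma. The grey band spans the 5th to the 95th percentile of all tested probes (-0.35 to 0.39), and the 2 MAT2B points lie outside it while the MTAP points lie on both sides of 0.

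The directions of these small differences depend on the scaling. When arrays were scaled to the spike-in RNAs, the median of all tested probes moved to -0.20, 11 of the 16 probes passed as lower beside 44.6% of all tested probes, and AHCY, MTRR and the second MTR probe turned negative. With that scaling the brighter MAT2B probe differed by -0.85 (adjusted p = 0.0211 in limma), still below the shifted median.

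Genes next to the 10 in the same pathways were taken from 8 lists of 62 genes, of which 54 had a tested probe (74 probes). In limma 1 probe of these passed as lower and 1 as higher, both in the list of transsulfuration and glutathione genes, beside the 1.15% and 1.47% of all tested probes. The median difference over the 74 probes was 0.02.

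CTH encodes cystathionine gamma-lyase, which follows CBS and releases cysteine. Its values were -0.29 and -0.26 on the mimic arrays and 0.46 and 0.43 on the control arrays. The groups were far apart compared with their replicate gaps of 0.04, and the difference was -0.72 ± 0.04 (SE, n = 2 arrays per group; adjusted p = 0.0314 in limma), a level 1.65-fold higher in control cells. GCLM, the modifier subunit of the enzyme that starts glutathione synthesis, was higher with the mimic. Its values were 4.14 and 4.15 against 3.71 and 3.65, a difference of 0.46 ± 0.04 (adjusted p = 0.0407 in limma). The level of GCLM was 1.38-fold higher in mimic cells, which misses the 1.5-fold criterion that CTH met. Both calls were lost without a filter on dim probes (adjusted p = 0.410 and 0.444 in limma) and with the methods' t-test after adjustment. A replicate block ended both calls too (adjusted p = 0.125 and 0.131 in limma). In each of these fits 0% of all probes passed, so the losses are not particular to CTH and GCLM. Both calls were also lost when any 1 of the 4 arrays was left out, as were nearly all calls over the whole array. The differences then ranged from -0.74 to -0.70 for CTH and from 0.43 to 0.49 for GCLM.

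Among the genes named after their values were seen, the catalytic partner GCLC had 2.40 and 2.43 with the mimic and 2.45 and 2.54 with the control, and its difference of -0.08 ± 0.05 did not pass the test. Glutathione synthetase, GSS, had overlapping groups and a difference of 0.02. Thus within this list of 6 tested probes 1 rose, 1 fell and 4 did not pass.

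In the other lists no probe passed the test, and the probe with the widest difference among those well above background on all arrays is given for each. In the folate list (21 tested probes), it was ALDH1L2, a mitochondrial formyl-tetrahydrofolate dehydrogenase, at -0.33 ± 0.05 (adjusted p = 0.0760 in limma). Its values were -2.11 and -2.10 with the mimic and -1.83 and -1.72 with the control, and the difference was -0.057 with normexp background correction (adjusted p = 0.540 in limma) and -0.52 with spike-in scaling. MTHFD1L, a mitochondrial formate-tetrahydrofolate ligase named after its values were seen, had positive differences at all 4 of its probes, from 0.09 to 0.28, none past the threshold (lowest adjusted p = 0.0690 in limma).

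Among SAM-using methyltransferases (15 tested probes), NNMT, which methylates nicotinamide, had 0.98 and 0.99 with the mimic and 0.57 and 0.68 with the control. Its difference was 0.36 ± 0.05 (adjusted p = 0.0721 in limma). Among the salvage enzymes downstream of MTAP (5 tested probes), a probe of the acireductone dioxygenase ADI1 had 0.94 and 0.98 against 0.68 and 0.65, a difference of 0.30 ± 0.04 (adjusted p = 0.0680 in limma). The second ADI1 probe differed by 0.09. In these genes both mimic arrays were above both control arrays, but the adjusted threshold was not passed.

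Among polyamine genes (13 tested probes), spermidine synthase, SRM, differed by 0.21 ± 0.04, and ODC1, the rate-limiting enzyme of the branch, by 0.03. Among the uptake genes (3 tested probes), the amino acid transporter SLC43A2 differed by -0.18 ± 0.11 with overlapping groups. Its difference was -0.067 without mimic replicate 1, -0.30 without mimic replicate 2 and -0.10 without control replicate 2. The other uptake genes, SLC7A5 and SLC3A2, went the other way, with differences of 0.17 ± 0.04 and 0.12 ± 0.04. Adenosine kinase, ADK, which removes a product of AHCY, differed by 0.15 ± 0.04 in the list of cycle partners (5 tested probes). MMACHC, which processes cobalamin for MTR, differed by 0.14 ± 0.08 at 1 of its probes (6 tested probes in its list). That difference was 0.076 without mimic replicate 1, 0.21 without control replicate 1 and 0.062 without control replicate 2. None of these passed the test.

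**Figure D4:**
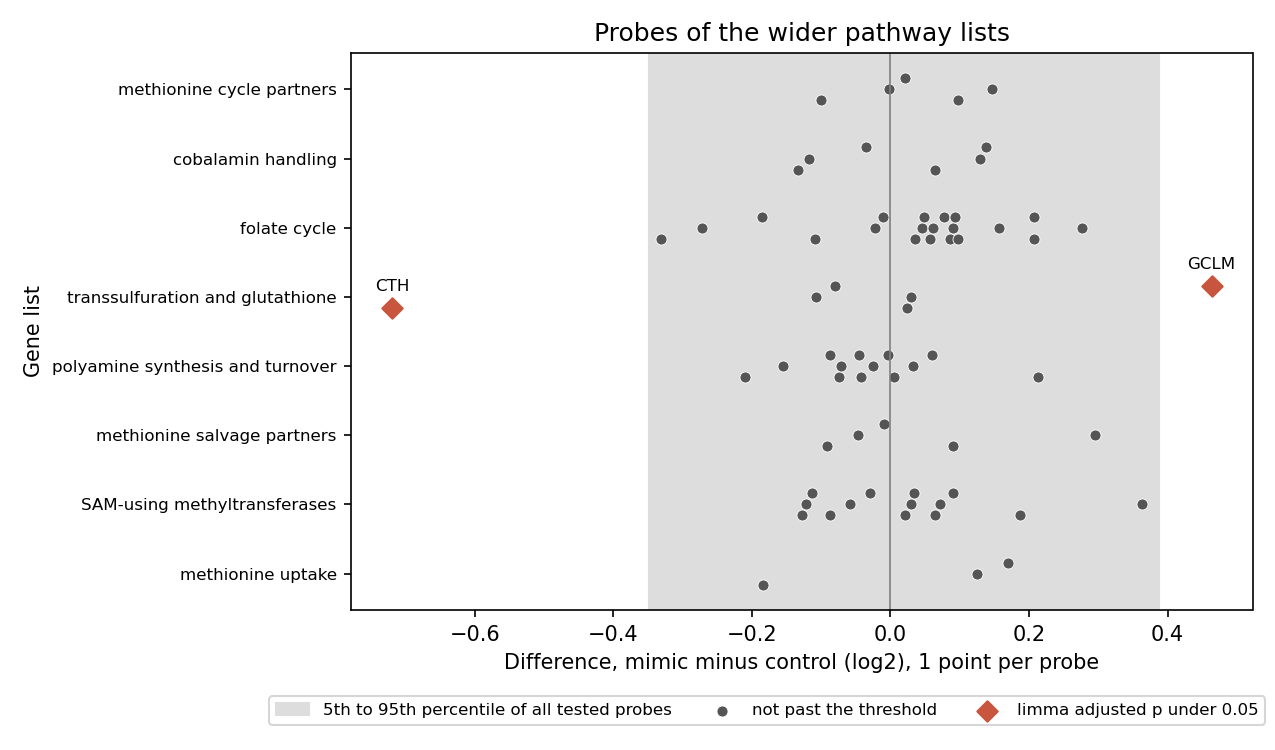
Difference between mimic and control (horizontal axis, log2 units) of the probes in 8 pathway lists, 1 point per probe, limited to those with all 4 arrays well above background. The red diamonds are the 2 probes past the adjusted threshold in limma, CTH at -0.72 and GCLM at 0.46, and the grey band spans the 5th to the 95th percentile of all tested probes.

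The genes whose pattern over the 4 arrays was most like that of the brighter MAT2B probe were sought by the Euclidean distance between values centred on each probe's own mean, over the 19351 other tested probes well above background on all arrays. ATP8B5P, a pseudogene, was nearest at a distance of 0.0111, followed by SH2D3C, a signaling adaptor, at 0.0591 and by a transcript cluster named THC2576836 at 0.0641. Their differences were -0.66, -0.68 and -0.62. The dimmer MAT2B probe itself ranked 177 of these 19351, at a distance of 0.254. With only 4 arrays such likeness is a description.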

How the data were processed

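Members and gene lists were chosen with earlier results of these data known. The deposited scanner files, written by Agilent Feature Extraction 10.7 per the submitters' processing notes, hold spot intensity values; the authors' processed intensity is background-subtracted and detrended within each array and is not normalized between arrays. The deposited value table holds the same intensity rounded (largest relative difference 0.497%), and 0 of its columns matched no sample. The authors deposited no log2 values.

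Of 62976 spots per array, 58717 were not controls. Outlier spots were dropped, spots of a probe were averaged as log2 values, and the 75th percentile of each array was subtracted. The test was run on probes with a value on all 4 arrays for which at least 1 group had both arrays well above background. It used limma 3.58.1 under R 4.3.3, with lmFit and eBayes, no trend, and Benjamini-Hochberg adjustment over 20328 probes. This step was tested on simulated data. With 2 arrays against 2, an exact two-sided permutation p cannot go below 0.333, so limma's pooled spread carries the tests.

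Named genes were all 10 members; from each pathway list the probes past the threshold or, with none, the 1 with the widest difference among those well above background on all arrays; and the 3 gene names most like MAT2B. GCLC, GSS, ODC1, MTHFD1L, SLC7A5, SLC3A2, HNMT, SHMT1, BHMT, BHMT2 and GNMT fall outside this rule and were named after their values were seen. Gene names and hg19 positions are those of the array files. Binding of pseudogene transcripts (such as those of AHCY, AMD1, MTAP and MAT2A) to these probes, and the place of a probe in coding or untranslated sequence, were not analysed here. Figures were drawn with matplotlib 3.10.9.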

Additional observations from a re-analysis of the deposited data

How the results depend on the processing

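Both MAT2B probes and the MTAP probes A_24_P51118 and A_33_P3329108 kept their direction under all 17 alternatives. Alternatives that change only the filter or the test could not alter a direction. The brighter MAT2B probe passed the threshold with normexp background correction (-0.59), spike-in scaling (-0.85), the filter on all 4 arrays, the intensity trend and the methods' t-test without adjustment (-0.66 in each), and it passed the 1.5-fold criterion. Its values without 1 array ranged from -0.75 to -0.57. Of the 16 member probes, 0 passed in the main setting, 2 with normexp, the filter on all 4 arrays or the trend, 3 in the unadjusted methods' t-test, 1 by fold and 11 with spike-in scaling, and 0 without any 1 array. All of these calls were lower. Of the wider lists, 2 probes passed in the main setting (1 lower, 1 higher), 6 with normexp (1 lower, 5 higher), 35 with spike-in scaling (34 lower, 1 higher), 15 with the trend (4 lower, 11 higher), 20 in the unadjusted methods' t-test, and 0 without a filter, with the adjusted methods' t-test, or without any 1 array. Over all probes, calls went from 532 (233 lower) to 1550 with normexp (758 lower), 588 of 19352 with the filter on all 4 arrays (289 lower), 9592 with spike-in scaling (9076 lower), 3083 with the trend (1736 lower), 4115 in the unadjusted methods' t-test (2231 lower) and 0 after its adjustment, 8 at most without 1 array, and 0 without a filter, where 3627 passed unadjusted in limma.

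Small differences turned sign. With spike-in scaling AHCY was at -0.078, the second MTR probe at -0.17, MTRR at -0.15, ADK at -0.041 and MMACHC at -0.050. AHCYL1 A_24_P11307 turned to 0.0064 with normexp, 9.1e-05 with quantile normalization and 0.0082 with the percentile of detected probes. Quantile normalization also turned MTR A_24_P67806 to -0.0013 and AMD1 A_24_P371962 to 0.0069. Without 1 array, AHCYL1 A_24_P11307 ranged from -0.073 to 0.059, MTR A_24_P67806 from -0.042 to 0.076 and MTRR A_23_P252211 from -0.0031 to 0.083. The cause was not tested.

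The replicate block left the MAT2B difference at -0.66 (adjusted p = 0.138 in limma) and gave 0 calls in the wider lists and 0 over all probes, where 4400 passed unadjusted; CTH and GCLM had adjusted p-values in limma of 0.125 and 0.131. The labels do not say whether shared replicate numbers pair the arrays of the groups. The replicate differences of the groups had a correlation of 0.0346 over the tested probes, which cannot settle this. A slide or scan block could not be fitted, since all arrays share 1 slide and 1 scan.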

Other observations

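Some dim probes were measured in 1 group only, and the genes here were named after their values were seen. HNMT, the histamine methyltransferase, had a probe, A_24_P915806, that was well above background on 2 arrays. Its values were -3.53 and -3.92 with the mimic and 0.56 and -2.79 with the control, so the control arrays themselves were far apart. The other HNMT probes, A_23_P56734 and A_33_P3347281, were not well above background on any array. Probe A_24_P915806 was not well above background on either mimic array, and it did not pass the test. A bound computed from the control mean would be 3.74-fold lower with the mimic, but it rests mostly on control replicate 1. Control replicate 2, at -2.79, was close to the lowest values among probes well above background on the mimic arrays (-3.10 and -2.93). The figure is therefore not a lower limit that both control arrays share. The interval of the difference in limma, -6.24 to 1.02, included both directions. Such a bound sets the mean of the brighter group against, on each array of the dimmer group, the higher of the probe's own value and the lowest value among probes well above background. SHMT1, cytosolic serine hydroxymethyltransferase, had a probe well above background on 2 arrays with -2.80 and -2.75 with the mimic and -3.61 and -4.94 with the control. It was not well above background on either control array, entered the fit through the mimic arrays only, and did not pass the test. The bound computed in the same way is 1.23-fold higher with the mimic, but it is no strict limit. A probe can exceed the lowest value used here and still not be well above background. On mimic replicate 2 the BHMT probe, at -2.78, did so, and SHMT1 was close to it at -2.75. The 2 bright probes of SHMT1 differed by -0.02 and -0.01. BHMT, BHMT2 and GNMT, enzymes of methionine metabolism known from the liver, were not well above background on any array.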
